A study of Mus musculus with 18 samples.

Results

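The VEGF system of the mouse heart was followed through 10 genes: the ligands Vegfa, Vegfb and Pgf, the receptors Flt1 and Kdr, the co-receptors Nrp1 and Nrp2, and the oxygen-sensing factors Hif1a, Epas1 and Egln3. These genes were taken by name from the 30072 genes in the deposited tables, with earlier results of these data known. All 10 were among the 15054 genes that passed the filter on low counts and entered the tests. RNA was sequenced in bulk from hearts of CD-1 mice, an outbred stock, in 3 groups of 6 mice: controls, mice 2 weeks after irradiation (IR) and mice 6 weeks after it. Per the methods of the study, all mice were anesthetized with isoflurane and imaged by CT. The irradiated mice were then given a single dose of 25 Gy to the heart, and the controls were not. The controls are described there as littermates matched for age and sex. All groups held males and females aged at least 8 weeks. The labels give the tissue as the septum between the ventricles and the series title calls the radiation gamma, while the methods of the study describe ventricular tissue and X-rays. The labels do not say which sex or litter each mouse came from, and they give no week for the controls.

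VEGF-A is the main growth factor of blood vessels, made in the heart largely by cardiomyocytes, and it acts on endothelial cells through the receptor tyrosine kinase KDR (VEGFR2). FLT1 (VEGFR1) binds VEGF-A more tightly but signals weakly, and with its soluble form it holds ligand away from KDR. VEGF-B and placental growth factor (PGF) bind FLT1 and not KDR, and the neuropilins are co-receptors for VEGF and for semaphorins. When oxygen is low, the HIF alpha subunits encoded by Hif1a and Epas1 escape hydroxylation by enzymes such as EGLN3, and they then switch on genes that include Vegfa, Flt1 and Egln3 itself. HIF proteins are controlled mainly after translation, so the transcript levels given here are not a measure of their activity.

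Pgf rose at both times after IR, Nrp2 rose at both times, Flt1 fell at both times and Vegfb fell at 6 weeks. Vegfa, Kdr and Nrp1 did not pass the main test, defined below, in any comparison. At 2 weeks, 3 of the 10 genes differed from control (2 higher and 1 lower), against 5.04% of all genes tested, of which 3.1% were higher and 1.93% lower. At 6 weeks, 5 of the 10 differed from control (2 higher and 3 lower), against 25% of all genes, 13.5% higher and 11.5% lower. Between 2 and 6 weeks 2 of the 10 differed (1 higher and 1 lower), against 5.32% of all genes, 3.31% higher and 2.01% lower. The comparisons with control use the same 6 control mice. A gene was called when its adjusted P from edgeR's quasi-likelihood test was under 0.05, with Benjamini-Hochberg adjustment over all 15054 genes. Values by mouse are CPM, a count relative to the library total after TMM scaling, which aligns most genes between libraries, and differences are log2 fold changes with their standard error (SE).

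**Figure D1:**
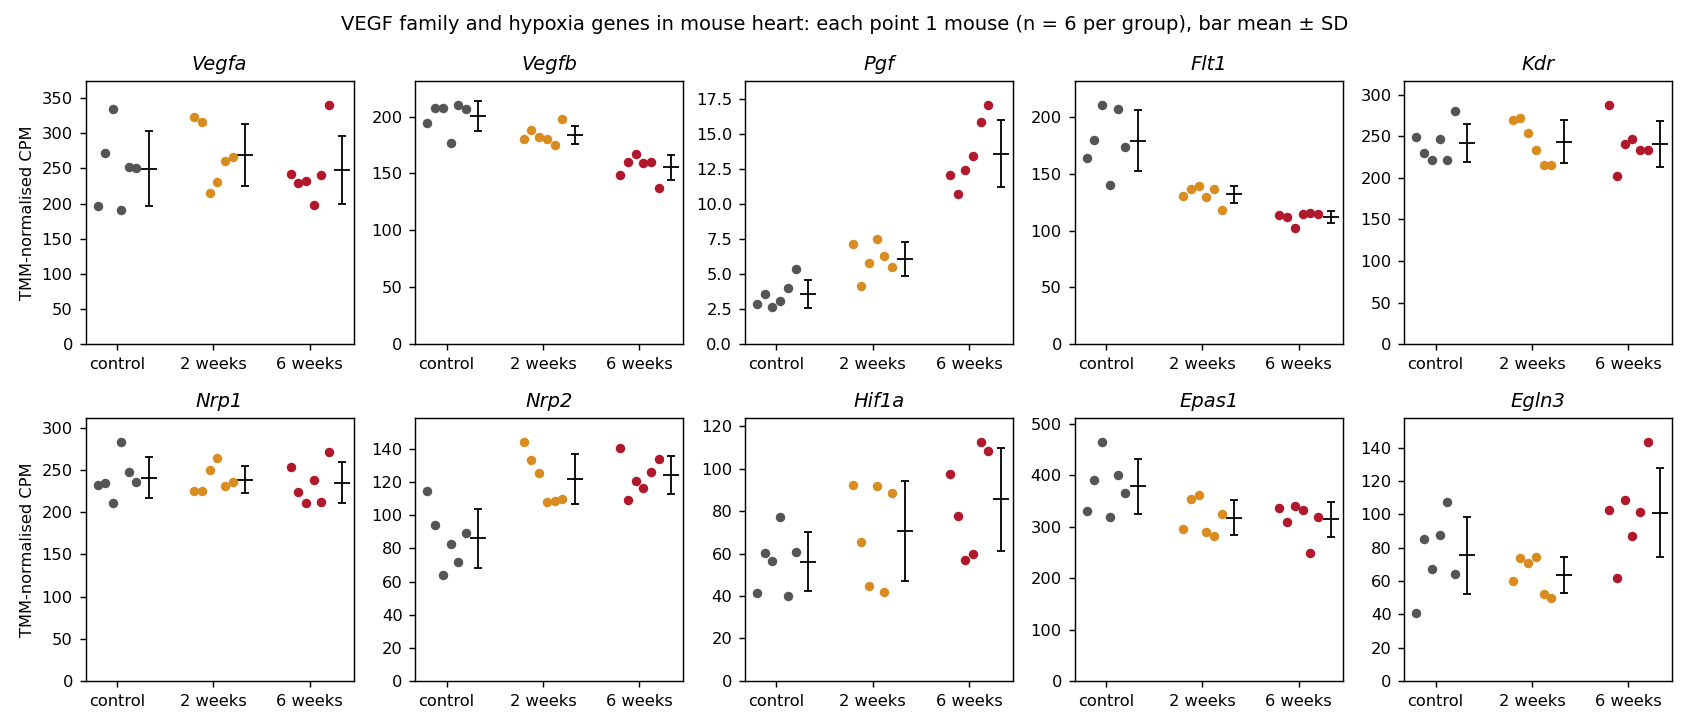
Level of each of the 10 genes in each mouse, in TMM-normalised CPM on a linear axis from 0, by group (6 mice each, bar mean ± SD). Pgf climbed from control (2.68 to 5.35 CPM) to 6 weeks (10.8 to 17.1 CPM), the Flt1 groups stepped down without overlap, and Kdr, Nrp1 and Vegfa overlapped throughout.

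The starts of the genes that changed are shown so that their sequences can be read beside the values. The genome windows come from RefSeq on GRCm38.p6 and were searched for the core of the hypoxia response element, spelled ACGTG or GCGTG, on both strands. The 9 genes with an entry in the window table were Vegfa, Vegfb, Pgf, Flt1, Kdr, Nrp1, Nrp2, Hif1a and Egln3. The printed bases lie before the start of transcription and are written 5′ to 3′ on the strand of the gene, and capitals mark the motifs, with CACGC standing for GCGTG on the opposite strand.
Flt1: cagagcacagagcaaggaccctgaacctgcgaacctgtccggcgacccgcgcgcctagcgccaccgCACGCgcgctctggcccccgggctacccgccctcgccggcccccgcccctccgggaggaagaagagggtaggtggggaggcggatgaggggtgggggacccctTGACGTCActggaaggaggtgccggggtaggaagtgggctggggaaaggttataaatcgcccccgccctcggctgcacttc
Vegfb: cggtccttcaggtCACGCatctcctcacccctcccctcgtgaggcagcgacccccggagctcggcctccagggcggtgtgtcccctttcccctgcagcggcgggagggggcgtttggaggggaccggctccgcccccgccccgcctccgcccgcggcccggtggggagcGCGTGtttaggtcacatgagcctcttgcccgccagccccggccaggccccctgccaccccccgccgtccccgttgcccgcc
Nrp2: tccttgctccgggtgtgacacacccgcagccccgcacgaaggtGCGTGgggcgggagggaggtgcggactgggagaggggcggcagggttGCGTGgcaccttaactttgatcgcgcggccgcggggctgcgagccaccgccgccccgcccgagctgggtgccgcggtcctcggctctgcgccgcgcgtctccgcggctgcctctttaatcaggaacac
Pgf: gccctgcggggtCACGCgcactcaggtctc
The Flt1 stretch is chr5:147726012-147726261 on the minus strand and ends just before the first base of the gene. Its second capital block, TGACGTCA, is the palindromic cyclic AMP response element, 81 to 74 bases before the start. The Vegfb stretch is chr19:6987652-6987901 on the minus strand, and the Nrp2 stretch is chr1:62703067-62703284 on the plus strand. The short Pgf stretch is chr12:85177420-85177449 on the minus strand and lies within an annotated exon of a longer transcript. The genes themselves span chr5:147561604-147726011 (Flt1), chr19:6982473-6987651 (Vegfb), chr1:62703285-62818695 (Nrp2) and chr12:85166635-85177790 (Pgf), and none of these has an exon that overlaps an exon of another gene in the GENCODE annotation of GRCm38.

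Across all 32851 windows of 300 bases, 19.6% held ACGTG, 32.4% held GCGTG and 43.8% held at least 1 of them. All 9 matched genes had at least 1 core, in 9 of their 11 windows. ACGTG was found in the windows of Egln3, Hif1a and Vegfa, and GCGTG in those of Flt1, Kdr, Nrp1, Nrp2, Pgf, Vegfa and Vegfb. Vegfa held both cores in a window inside the gene that overlaps an annotated exon (chr17:46025114-46025413). The window at the 5′ end of Vegfa held neither. TGACGTCA occurred in 1.8% of all windows and, among these genes, in that of Flt1. The genes with a core included ones that rose, ones that fell and ones that did not pass the test, and a match of letters is not evidence that a factor binds there.

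Compared per transcript length, the system was unequal in its parts. In control hearts the mean level in TPM, a share of transcripts that allows for their length, was 168 ± 12 for Vegfb and 152 ± 27.6 for Vegfa (SD, n = 6), and these neighbours overlapped. Epas1 followed at 68.2 ± 7.61 TPM, apart from both its neighbours in the order. Nrp1 (40.8 ± 6.17 TPM), Kdr (40.4 ± 5.27 TPM), Flt1 (33.2 ± 5.44 TPM), Egln3 (26.4 ± 7.97 TPM), Hif1a (19.3 ± 4.64 TPM) and Nrp2 (14.9 ± 4.26 TPM) formed a chain in which each overlapped the next. Pgf was the scarcest at 2.40 ± 0.503 TPM and did not overlap any other gene. At 6 weeks Vegfa stood first at 207 ± 38.1 TPM, overlapping Vegfb at 170 ± 8.61 TPM, and Flt1 had moved from the sixth place to the ninth at 26.8 ± 3.71 TPM. From Epas1 down to Flt1, each gene overlapped the next in this order. Pgf was still last at 12.1 ± 2.23 TPM.

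Pgf, which encodes a ligand of FLT1 and not of KDR, changed most. Its level in control hearts ran from 2.68 to 5.35 CPM with a median of 3.32. At 2 weeks it ran from 4.17 to 7.52 CPM (median 6.03), and at 6 weeks from 10.8 to 17.1 CPM (median 12.9). At 2 weeks 5 of 6 mice stood above every control, and at 6 weeks all 6 stood above every other mouse. The difference from control on the log2 scale was 0.77 (SE 0.18, adjusted P = 0.0197) at 2 weeks and 1.92 (SE 0.17, adjusted P = 5.94e-07) at 6 weeks, a 3.79-fold rise. Pgf was the 24th of all genes by P at 6 weeks and the only one of the 10 past a log2 change of 1, which 5.95% of all genes passed together with the test. The further rise from 2 to 6 weeks was 1.16 (SE 0.16, adjusted P = 0.00111). The control values rest on 29 to 62 estimated counts per mouse, against 155 to 227 at 6 weeks.

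Vegfb, a ligand of FLT1 linked with coronary vessels and lipid handling of the heart, went the other way. Control mice had 177 to 210 CPM (median 207). Mice at 2 weeks had 175 to 197 CPM (median 181) and mice at 6 weeks 137 to 168 CPM (median 160). All mice at 6 weeks lay below all mice of both other groups, while controls and 2 weeks overlapped. The log2 difference from control was -0.13 (SE 0.06, adjusted P = 0.212) at 2 weeks and -0.37 (SE 0.06, adjusted P = 0.000122) at 6 weeks, and from 2 to 6 weeks it was -0.24 (SE 0.06, adjusted P = 0.0212). The last call was lost without the sixth mouse of the 6-week group (adjusted P = 0.0534), with library size alone (-0.13, adjusted P = 0.134), on log2(TPM + 1) (-0.09, adjusted P = 0.315) and on log2(TPM + 0.1) (-0.09, adjusted P = 0.326). With scaling by library size alone the 6-week difference from control was -0.10 (adjusted P = 0.135), and on log2(TPM + 1) it was 0.01 (adjusted P = 0.851). The median of all genes at 6 weeks was 0.24 and 0.29 under these scalings, against -0.02 with TMM, and relative to that median Vegfb stood at -0.35 and -0.27.

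Vegfa, the ligand of both receptors, showed no change that could be told from the spread between mice. It ran from 192 to 335 CPM in controls (median 251), from 216 to 324 CPM at 2 weeks (median 264) and from 198 to 340 CPM at 6 weeks (median 236). The log2 difference was 0.11 (SE 0.14, adjusted P = 0.725) at 2 weeks and -0.01 (SE 0.14, adjusted P = 0.961) at 6 weeks, with a 95% confidence interval at 6 weeks of -0.31 to 0.29. On log2(TPM + 1) the 6-week difference was 0.44 (adjusted P = 0.00752), or 0.15 above the median of all genes on that scale. The ligands that act through FLT4 on lymphatic vessels did not pass the test either. Vegfc had a mean of 5.98 ± 1.35 CPM in controls and 5.30 ± 0.898 CPM after 6 weeks (SD, 6 mice each), and Vegfd 4.60 ± 2.76 CPM and 4.61 ± 1.20 CPM.

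Flt1 fell stepwise. It ran from 140 to 211 CPM in controls (median 177), from 118 to 139 CPM at 2 weeks (median 134) and from 102 to 116 CPM at 6 weeks (median 114). Every mouse at 2 weeks lay below every control, and every mouse at 6 weeks below every mouse at 2 weeks. The log2 difference from control was -0.44 (SE 0.08, adjusted P = 0.0044) at 2 weeks and -0.67 (SE 0.08, adjusted P = 1.16e-05) at 6 weeks, or 0.627 of the control level. The difference from 2 to 6 weeks was -0.23 (SE 0.08, adjusted P = 0.0959), so the later step did not pass the test although the groups did not overlap. On log2(TPM + 1) the 2-week difference was -0.16 (adjusted P = 0.294), or -0.33 relative to the median of all genes, and the 6-week difference was -0.29 (adjusted P = 0.0266). The counts are summed over the transcripts of the gene, so the membrane form and the soluble form are not separated.

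Kdr, the receptor through which VEGF-A drives endothelial growth, stayed within its spread. It ran from 221 to 280 CPM in controls (median 239), from 216 to 272 CPM at 2 weeks (median 243) and from 202 to 288 CPM at 6 weeks (median 237). The log2 difference was 0.01 (SE 0.08, adjusted P = 0.959) at 2 weeks and -0.00 (SE 0.08, adjusted P = 0.981) at 6 weeks. With TMM, the 95% confidence interval at 6 weeks, -0.18 to 0.17, holds no change as large as that of Flt1. With scaling by library size alone the 6-week difference of Kdr was 0.26 (adjusted P = 0.0276), or 0.02 above the median of all genes. On log2(TPM + 1) it was 0.39 (limma adjusted P = 0.0046), or 0.1 above that median, where Flt1 was at -0.29.

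The groups without overlap counted 1 of the 10 genes at 2 weeks against control (3.24% of all genes), 3 at 6 weeks against control (9.23%) and 3 at 6 weeks against 2 weeks (3.53%). These were Flt1 in all 3 comparisons, joined by Pgf and Vegfb in both comparisons of the 6-week group.

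**Figure D2:**
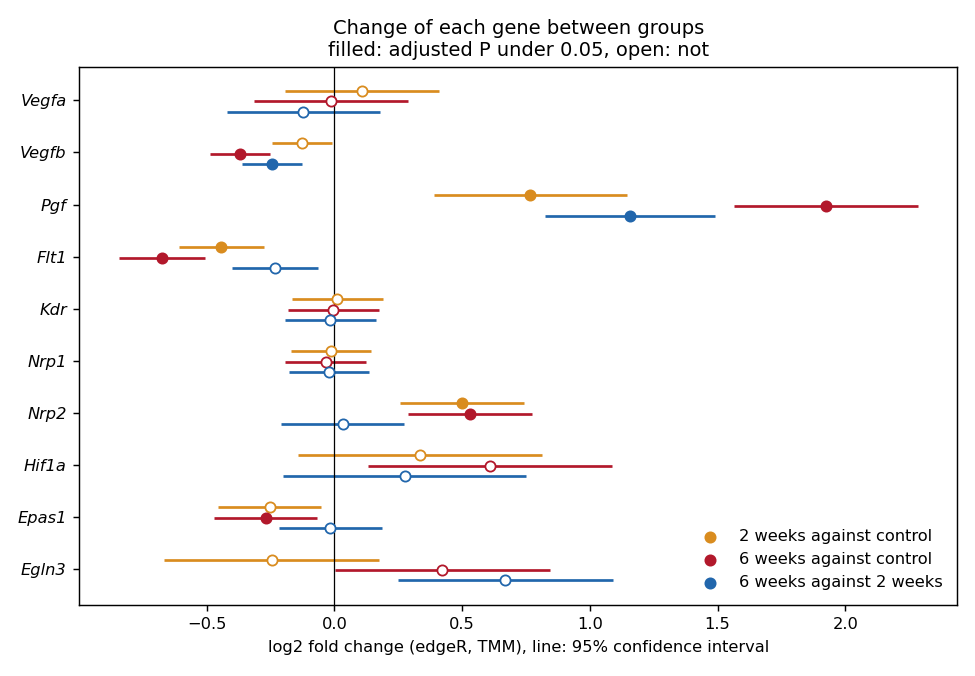
Log2 fold change of each of the 10 genes in the 3 comparisons, with its 95% confidence interval; filled points have an adjusted P under 0.05. The intervals of Kdr and Nrp1 sit around 0 in all comparisons, Pgf reaches 1.92 and Flt1 -0.67 at 6 weeks.

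Nrp1, the co-receptor of KDR on arterial endothelium, and Nrp2, that of veins and lymphatic vessels, are given in turn. Nrp1 ran from 210 to 284 CPM in controls (median 235), from 225 to 264 CPM at 2 weeks (median 234) and from 211 to 271 CPM at 6 weeks (median 231). Its log2 difference at 6 weeks was -0.04 (SE 0.07, 95% confidence interval -0.19 to 0.12). On log2(TPM + 1) the 6-week difference of Nrp1 was 0.37 (limma adjusted P = 0.0066), or 0.08 above the median of all genes. Nrp2 ran from 63.8 to 115 CPM in controls (median 86.1), from 108 to 144 CPM at 2 weeks (median 118) and from 109 to 141 CPM at 6 weeks (median 123). At 2 weeks 3 of 6 mice lay above every control and at 6 weeks 5 of 6 did. The log2 difference of Nrp2 was 0.50 (SE 0.12, adjusted P = 0.0189) at 2 weeks and 0.53 (SE 0.12, adjusted P = 0.00235) at 6 weeks, and between the irradiated groups it was 0.03 (SE 0.11, adjusted P = 0.916). The 95% confidence interval of that later difference was -0.21 to 0.27.

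Of the hypoxia factors only Epas1 was called, and only at 6 weeks. Epas1, which encodes HIF2 alpha and is strong in endothelium, ran from 318 to 465 CPM in controls (median 379), from 282 to 361 CPM at 2 weeks (median 310) and from 249 to 340 CPM at 6 weeks (median 325). The groups overlapped. The log2 difference was -0.25 (SE 0.10, adjusted P = 0.138) at 2 weeks and -0.27 (SE 0.10, adjusted P = 0.0472) at 6 weeks. The 6-week call was lost in 14 of the 18 fits that left out 1 mouse, whose adjusted P ran from 0.0208 to 0.137, and with scaling by library size alone the difference was 0.00 (adjusted P = 0.987).

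Hif1a, the subunit found in most cell types, ran from 40.1 to 77.4 CPM in controls (median 58.4), from 41.9 to 92.5 CPM at 2 weeks (median 77.0) and from 56.9 to 113 CPM at 6 weeks (median 87.7). Within each irradiated group the mice were spread widely, and 4 of 6 mice at 6 weeks lay above every control. The log2 difference was 0.34 (SE 0.23, adjusted P = 0.435) at 2 weeks and 0.61 (SE 0.23, adjusted P = 0.0584) at 6 weeks. The latter passed the threshold in 5 of the 18 fits without 1 mouse and with DESeq2 (adjusted P = 0.0326), library size alone (0.88, adjusted P = 0.00534), log2(TPM + 1) (0.88, adjusted P = 0.0024) and log2(TPM + 0.1) (0.91, adjusted P = 0.00238). Relative to the median of all genes, Hif1a stood at 0.632 with library size alone and at 0.628 with TMM. On log2(TPM + 1) and log2(TPM + 0.1) it stood at 0.59 and 0.538 relative to that median.

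Egln3, the prolyl hydroxylase whose transcript is itself a HIF target, ran from 40.5 to 107 CPM in controls (median 76.1), from 49.99 to 74.7 CPM at 2 weeks (median 65.4) and from 62.1 to 144 CPM at 6 weeks (median 102). The log2 difference from control was -0.25 (SE 0.20, adjusted P = 0.528) at 2 weeks and 0.42 (SE 0.20, adjusted P = 0.136) at 6 weeks. The latter was called with library size alone (0.69, adjusted P = 0.0099), on log2(TPM + 1) (0.81, adjusted P = 0.0031) and on log2(TPM + 0.1) (0.84, adjusted P = 0.00307), as was the difference from 2 to 6 weeks under these scalings. Relative to the median of all genes, the 6-week values were 0.452, 0.528 and 0.468 in that order, against 0.442 with TMM. From 2 to 6 weeks the log2 difference with TMM was 0.67 (SE 0.20, adjusted P = 0.0595), with 5 of 6 mice at 6 weeks above every mouse at 2 weeks. DESeq2 called this difference (adjusted P = 0.0204), as did limma voom with sample quality weights (adjusted P = 0.0474).

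Bulk RNA cannot tell fewer cells of a type from less RNA per cell, so the levels of cell type markers are given beside these genes. The defining endothelial markers were present in every mouse, with Pecam1 at 111 to 282 CPM and Cdh5 at 231 to 473 CPM, and Myh6 of cardiomyocytes was at 11183 to 22747 CPM. The sum over 12 endothelial markers was 1293 to 1539 CPM in controls (median 1397), 1407 to 1562 at 2 weeks (median 1436) and 1541 to 1987 at 6 weeks (median 1647), higher at 6 weeks by the exact permutation test (adjusted P = 0.0162). This sum passed at 2 weeks on TPM (exact permutation test, adjusted P = 0.0325) but not on CPM (adjusted P = 0.497). Its members did not move as one: at 6 weeks 6 of 12 were higher and 3 lower, with Pecam1 at 0.90 (SE 0.08) and Tek, the angiopoietin receptor, at -0.75 (SE 0.10) on the log2 scale. The sum over 10 cardiomyocyte markers was 40191 to 58626 CPM in controls (median 51227), 40852 to 50229 at 2 weeks (median 45299) and 33141 to 41385 at 6 weeks (median 36541), lower at 6 weeks (exact permutation test, adjusted P = 0.0244), but not as sums of TPM (adjusted P = 0.573). The sum over 8 macrophage markers was 119 to 293 CPM in controls (median 158) and 256 to 357 at 6 weeks (median 277, exact permutation test, adjusted P = 0.039). Of these 8 markers 6 were higher at 6 weeks and 1 lower, Cd163 at -0.98 (SE 0.26) on the log2 scale. The 8 lymphocyte markers summed to only 1.20 to 2.43 CPM in controls and to 4.18 to 6.27 CPM at 6 weeks (exact permutation test, adjusted P = 0.0162), with Cd3d and Ms4a1 at 0 in some mice. The 6 markers of lymphatic endothelium summed to 198 to 232 CPM in controls and to 164 to 190 CPM at 6 weeks (exact permutation test, adjusted P = 0.0162), but this was lost on sums of TPM (adjusted P = 0.643), and most of the sum was Prox1, at a mean of 133 CPM in controls. Sums for fibroblasts passed on neither scale, and those for smooth muscle and pericytes passed on TPM at both times (exact permutation test, adjusted P = 0.00928 each) but not on CPM. The smooth muscle and pericyte medians on CPM were 1130 in controls, 1031 at 2 weeks and 1003 at 6 weeks. Tests on sums of TPM were kept as P values alone, so their direction is not given. The part of these shifts in the levels of the 10 genes was not tested, apart from the ratios that follow.

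Ratios within a mouse do not depend on the scaling between mice. The 11 ratios were compared by two-sided exact permutation tests, 6 mice against 6, in 33 tests with Benjamini-Hochberg adjustment, and 11 passed 0.05. The smallest P that 924 rearrangements allow is 0.00216. Kdr stood at 1.36 times Flt1 in controls as the geometric mean of the ratio of CPM, at 1.84 times at 2 weeks and at 2.13 times at 6 weeks. This ratio was higher than in controls at 2 weeks (1.36-fold, exact permutation adjusted P = 0.0268) and at 6 weeks (1.58-fold, exact permutation adjusted P = 0.0179), where the groups did not overlap. The Vegfa/Kdr and Vegfa/Vegfb ratios passed the test in no comparison.

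Relative to the geometric mean of the endothelial markers, Flt1 was 0.72 of its control ratio at 2 weeks and 0.558 at 6 weeks, and the 6-week ratio was 0.775 of that at 2 weeks. None of the 3 groups overlapped (exact permutation adjusted P = 0.0179 for each). Against the same markers Nrp2 was 1.39-fold higher at 2 weeks and 1.30-fold higher at 6 weeks (exact permutation adjusted P = 0.0238 for each). Kdr was 0.879 and Nrp1 0.862 of the control ratio at 6 weeks, and neither passed (exact permutation adjusted P = 0.0952 and 0.0714). Epas1 was 0.734 of its control ratio at 6 weeks (exact permutation adjusted P = 0.0268).

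The ratio between the transcripts of the HIF subunit genes was also lower at 6 weeks. The Epas1/Hif1a ratio of CPM was 6.87 in controls, 4.71 at 2 weeks and 3.78 at 6 weeks, which was 0.551 of control (exact permutation adjusted P = 0.0429), with overlapping groups. Against the cardiomyocyte markers Vegfa was 1.26-fold higher at 2 weeks (exact permutation adjusted P = 0.0455) and 1.39-fold higher at 6 weeks (exact permutation adjusted P = 0.0317), while Vegfb was at 1.07-fold and 1.08-fold without passing (exact permutation adjusted P = 0.121 and 0.0604). On TPM the 2-week values of Kdr/Flt1 and Vegfa/cardiomyocyte markers no longer passed (exact permutation adjusted P = 0.0571 and 0.0519).

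**Figure D3:**
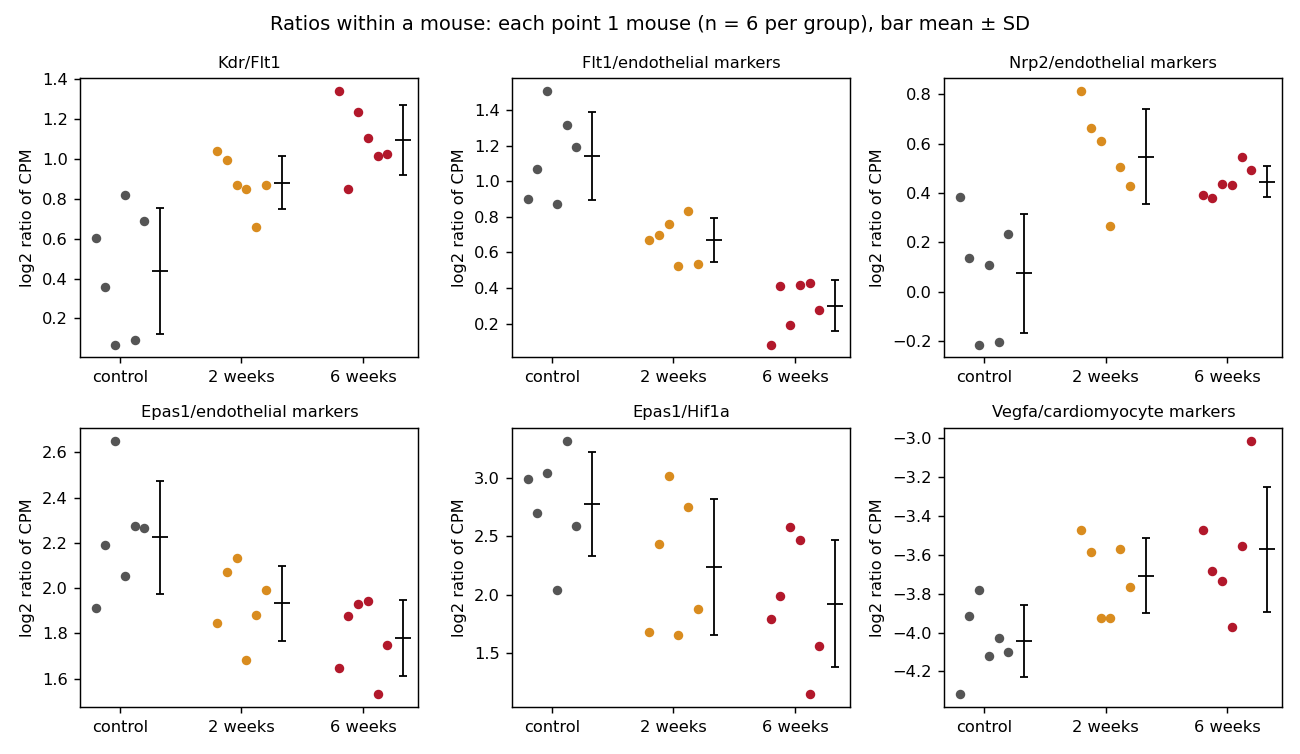
Log2 of 6 ratios of CPM within each mouse, by group (6 mice each, bar mean ± SD); marker means are geometric. Flt1 relative to endothelial markers steps down without overlap, while Kdr/Flt1 and Nrp2/endothelial markers are higher after IR.

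The genes downstream of these receptors were read from lists of pathway members. Of 44 genes of VEGF receptor signaling, 3 were higher and 1 lower at 2 weeks, and 9 were higher and 7 lower at 6 weeks. That was 6.82% and 2.27% of the list at 2 weeks, where 3.1% of all genes were higher and 1.93% lower, and 20.5% and 15.9% at 6 weeks, where 13.5% of all genes were higher and 11.5% lower. Their median log2 difference at 6 weeks was 0.09, against -0.02 for all genes. Among those higher at 6 weeks were the Src-family kinase Fyn (0.48, SE 0.08), the adaptor Shc1 (0.47, SE 0.06), the phosphoinositide 3-kinase subunit Pik3cd (0.68, SE 0.12) and the protein kinase C gene Prkcb (1.07, SE 0.20). Fyn, Shc1 and Src were also higher at 2 weeks, by 0.36, 0.24 and 0.38. Pik3cd and Prkcb are known mainly from leukocytes, and the sum of macrophage markers was higher in the same mice. The part of leukocytes in the levels of these genes was not tested. Those lower at 6 weeks included the vascular endothelial phosphatase Ptprb (-0.34, SE 0.06), which was also lower at 2 weeks (-0.21, SE 0.06), protein kinase D1 (Prkd1, -0.66, SE 0.15) and Mapkapk2 (-0.33, SE 0.07). Ptprb is 1 of the 12 endothelial markers as well. The lymphatic VEGF receptor gene Flt4 was 0.38 higher at 6 weeks (SE 0.08, adjusted P = 0.00201). It is also 1 of the 6 markers of lymphatic endothelium, of which Flt4 alone was higher at 6 weeks and 3 were lower.

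Of 20 endothelial genes known to respond to VEGF, 9 were higher and none lower at 6 weeks, with a median of 0.39. The higher genes were 45% of the list, where 13.5% of all genes were higher and 11.5% lower. At 2 weeks 3 were higher and none lower, with a median of 0.02. That was 15% of the list higher, where 3.1% of all genes were higher and 1.93% lower. Esm1, the endothelial proteoglycan endocan of sprouting tip cells, had a mean of 1.68 CPM in controls (SD 0.483), 1.83 CPM (SD 0.786) after 2 weeks and 17 CPM (SD 9.71) after 6 weeks, a log2 difference of 3.32 (SE 0.39, adjusted P = 1.16e-05) at 6 weeks. Angpt2, the angiopoietin stored and released by endothelium, had a mean of 3.58 CPM in controls (SD 0.578), 6.98 CPM (SD 1.5) after 2 weeks and 16.0 CPM (SD 3.41) after 6 weeks, which gave 0.95 (SE 0.18) and 2.15 (SE 0.17). Both Esm1 and Angpt2 were without overlap between controls and 6 weeks. The leukocyte adhesion molecules Icam1 (1.17, SE 0.13) and Sele (1.71, SE 0.23) were also higher at 6 weeks, and Icam1 (0.70, SE 0.13) and the urokinase receptor Plaur (1.15, SE 0.23) at 2 weeks. Icam1, Sele and Plaur are known to respond to inflammatory cytokines too, and the part of the macrophage and lymphocyte markers in them was not tested.

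Of 18 further genes of the HIF pathway (other subunits, hydroxylases and the machinery of degradation), none was higher. At 2 weeks 1 was lower, Eloc of the VHL ubiquitin ligase (-0.33, SE 0.08), and at 6 weeks 1 was lower, the HIF antagonist Cited2 (-0.52, SE 0.18). The lower gene was 5.56% of this list each time. Of all genes, 3.1% were higher and 1.93% lower at 2 weeks, and 13.5% higher and 11.5% lower at 6 weeks. Of 36 HIF target genes, 1 was higher and 2 lower at 2 weeks, and 13 were higher and 4 lower at 6 weeks, with medians of -0.08 and 0.17. At 2 weeks 2.78% of this list was higher and 5.56% lower, where 3.1% and 1.93% of all genes were. At 6 weeks 36.1% was higher and 11.1% lower, where 13.5% and 11.5% of all genes were. The heme oxygenase gene Hmox1 was higher at both times (0.69, SE 0.14, and 1.36, SE 0.14). Ankrd37 (0.85, SE 0.16) and the clock-related repressor Bhlhe40 (0.65, SE 0.12) were higher at 6 weeks. The glycolytic genes of the list went in both directions. Gapdh was lower at both times (-0.47 and -0.51, SE 0.12 each) and Aldoa at 6 weeks (-0.20, SE 0.06). Outside the naming rule, Eno1 (0.34, SE 0.08), Pgam1 (0.42, SE 0.11), the regulators Pfkfb3 (0.36, SE 0.13) and Pfkfb4 (0.67, SE 0.16) and the glucose transporter gene Slc2a1 (0.47, SE 0.10) were higher at 6 weeks, and they are named after their values were seen. Bnip3l was lower at 2 weeks (-0.23, SE 0.06), and the transferrin receptor gene Tfrc (-0.83, SE 0.28) and Stc2 (-0.65, SE 0.23) were lower at 6 weeks. With scaling by library size alone the lower calls nearly vanished: at 6 weeks the lists of receptor signaling, VEGF-responsive genes, further HIF genes and HIF targets had 29, 11, 8 and 19 higher and 1, 0, 0 and 0 lower. Over all 15054 genes, 5816 were called at 6 weeks under that scaling, and 94.4% of these calls were higher.

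**Figure D4:**
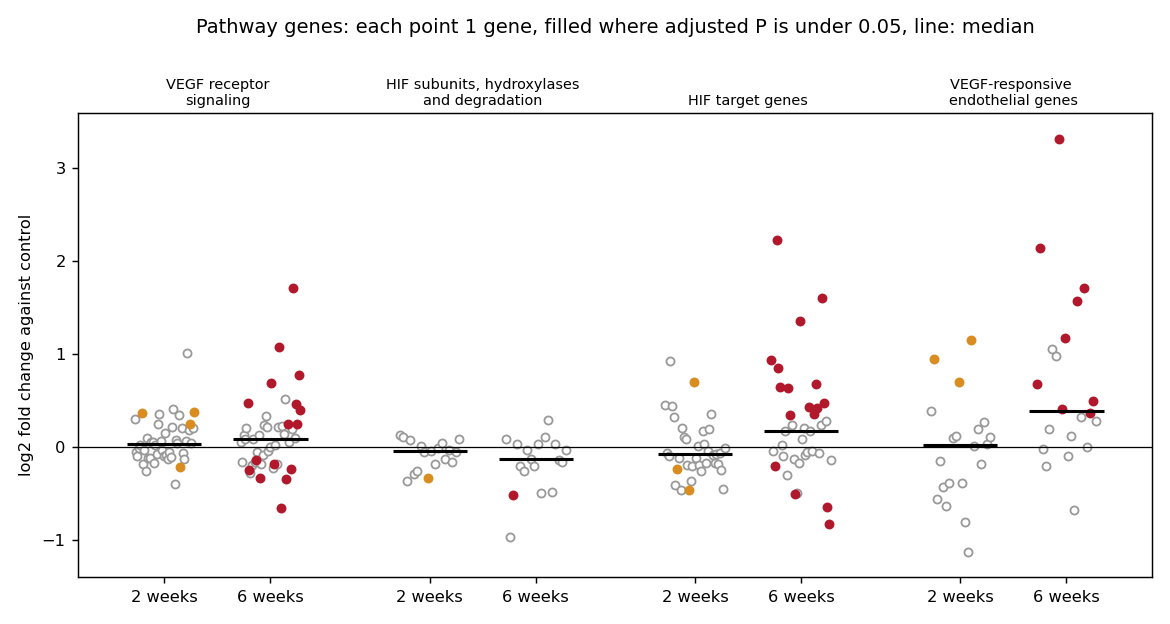
Log2 fold change against control of each gene in 4 pathway lists at 2 and 6 weeks; filled points have an adjusted P under 0.05 and the line is the median. The VEGF-responsive endothelial genes have called points above 0 alone, up to 3.32 at 6 weeks, and receptor signaling has called points on both sides of 0.

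The genes whose course was most like that of each changed gene were found by the root mean square difference of log2 CPM, centred on controls, over the 18 mice. This is a description with no test. For Pgf they were Ptpn7, Mcam and Nes, at 0.336 to 0.344 where the change of Pgf itself had a root mean square of 1.14. For Flt1 they were Pitpnc1, Dock9 and Adk, at 0.144 to 0.153 against 0.473. Those nearest to Nrp2 were Rflnb, Plxnd1 and Lasp1, at 0.113 to 0.134 against 0.475. Those nearest to Vegfb were Foxo4, Atp5j and Pmpcb, at 0.0724 to 0.0786 against 0.238, and Epas1 had Ndufaf3, Thop1 and Fyco1 at 0.136 to 0.141 against 0.264.

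Totals ran from 11522979 to 15501002 estimated counts per mouse, so that 3 counts, the limit below which a level was not detectable, were worth 0.194 to 0.26 CPM, far under the lowest of the 10 genes. Genes encoded by mitochondria took 19.8% to 25.0% of counts in controls and 16.5% to 20.1% at 6 weeks, and the scaling factors ran from 0.844 to 0.991 in controls and from 1.04 to 1.13 at 6 weeks. The labels give no batch. Genes of the Y chromosome summed to over 10 CPM in 3 of the 6 mice of every group. Where no TMM scaling was used, the median of all genes at 6 weeks moved up, and the values of the 10 genes moved up with it. Pgf and Nrp2 were higher and Flt1 lower at 6 weeks, past the threshold, under 4 scalings: TMM, library size only, log2(TPM + 1), and log2(TPM + 1) with TMM scaling.

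**Figure D5:**
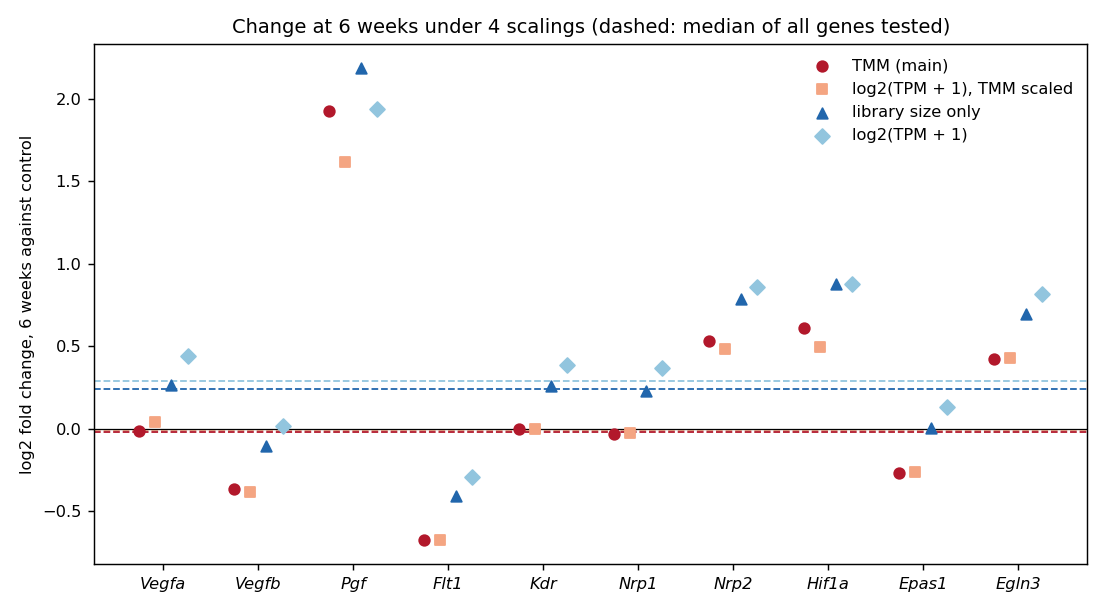
Log2 fold change at 6 weeks against control of each of the 10 genes under 4 scalings; dashed lines are the medians of all genes tested. Pgf and Nrp2 lie above and Flt1 below both 0 and the medians under each scaling, while Vegfb and Epas1 lie below the medians under each, and above 0 on log2(TPM + 1).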

How the data were processed

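RNA from 18 mice, 6 per group, was sequenced in paired reads on a NovaSeq. Per the labels and the methods of the study, the authors quantified transcripts with Salmon (1.0 in the submitters' processing notes, which also name CASAVA 1.8 and GRCm38) and deposited estimated counts per gene. The authors also deposited TPM values per gene, which are scaled to each library and to transcript length. Estimated counts were rounded to whole numbers, a gene was tested if 6 or more mice reached 0.23 CPM, and edgeR 4.0.16 (R 4.3.3) was fitted to all 18 mice with TMM scaling, the quasi-likelihood F test and Benjamini-Hochberg adjustment over all genes tested. Ratios and summed markers were compared by two-sided exact permutation tests. CPM and fold changes depend on TMM scaling, and the TPM values as deposited carry no such scaling. limma 3.58.1 and DESeq2 1.42.0 served as alternatives, with other scalings, filters, a replicate block, a term for Y-linked expression and the removal of each mouse in turn. TPM with TMM scaling and TPM sums of markers were added after the data were seen. All 10 genes are named throughout. From each list the called genes with the smallest adjusted P are named, up to 4 in each direction and comparison with control, and for each changed gene the 3 nearest in course, with exceptions stated. Some genes under this rule are not reported here by name. The genes and lists were chosen with earlier results of these data known. Where nothing says that mice came from separate litters, P values measure the spread between these mice. Tested on simulated counts of 14956 genes for 6 weeks against control, the fit found 83 of 100 genes changed by 0.7 on the log2 scale and 100 of 100 changed by 1.5, with 13 false calls. Every simulated gene had the same dispersion between mice, and only genes above a low level were changed. These rates therefore do not carry over to genes that spread more widely between mice. Hif1a and Egln3 had the largest SE of the 10 genes at 6 weeks (0.23 and 0.20).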

Additional observations from a re-analysis of the deposited data

Results flagged for a closer look

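In 3 of the 63 groups examined, 1 mouse lay far from the rest of its group, measured by its gap to the nearest mouse as a share of the group's range. Chance flags about 1 in 20 groups, which is close to this number. The sixth mouse at 6 weeks had 340.4 CPM of Vegfa where the next highest had 242.8. The third mouse at 6 weeks had 102 CPM of Flt1 where the next lowest had 112. The fifth mouse at 6 weeks had 249 CPM of Epas1 where the next lowest had 309. The changes from control of 2 genes differed between 2 and 6 weeks by the test of that difference: the log2 difference of 6 against 2 weeks was 1.16 for Pgf and -0.24 for Vegfb, the latter lost with library size alone (-0.13) and on both TPM scales without TMM.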

How the results depend on the processing

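Of 930 alternative values for the log2 differences of the 10 genes, 814 kept direction and side of the threshold, 26 lost the call, 20 gained one and 70 turned in sign. Of the turned values, 33 came with library size only or TPM without TMM, 30 with 1 mouse left out and 7 otherwise, and 12 involved a call. At 6 weeks against control, library size only gave Vegfa 0.26, Kdr 0.26, Nrp1 0.23 and Epas1 0.0023, log2(TPM + 1) gave Vegfa 0.44, Vegfb 0.0143, Kdr 0.39, Nrp1 0.37 and Epas1 0.13, and log2(TPM + 0.1) gave 0.44, 0.0144, 0.39, 0.37 and 0.13. At 2 weeks, library size only gave Vegfb 0.0274 and Nrp1 0.14, log2(TPM + 1) gave Vegfb 0.11, Nrp1 0.24 and Egln3 0.0406, and log2(TPM + 0.1) gave 0.11, 0.25 and 0.0434. For 6 against 2 weeks, library size only gave Kdr 0.0984, Nrp1 0.0905 and Epas1 0.10, log2(TPM + 1) gave Vegfa 0.11, Kdr 0.13, Nrp1 0.12 and Epas1 0.14, and log2(TPM + 0.1) gave 0.12, 0.14, 0.13 and 0.14. Values of Kdr near 0 at 6 weeks turned with DESeq2 (0.00301), limma voom (0.00807), upper quartile scaling (0.00299) and DESeq2 size factors in edgeR (0.00296), as did Epas1 for 6 against 2 weeks with limma voom (0.000217). With TMM-scaled TPM, Nrp1 at 2 weeks (0.00114) and Vegfa at 6 weeks (0.0413) turned, and with TPM the log2 ratio Vegfa/Kdr at 6 weeks (0.0454). Leaving out 1 mouse at a time, the log2 differences that turned ran from -0.0231 to 0.0585 (Kdr) and from -0.0465 to 0.0402 (Nrp1) at 2 weeks, from -0.124 to 0.0924 (Vegfa), -0.0607 to 0.0462 (Kdr) and -0.0773 to 0.0174 (Nrp1) at 6 weeks, and from -0.0472 to 0.0427 (Epas1), -0.0731 to 0.0299 (Kdr), -0.0655 to 0.00882 (Nrp1) and -0.00563 to 0.0877 (Nrp2) between them. The log2 ratios that turned ran from -0.0662 to 0.0279 (Kdr/endothelial markers) and -0.0864 to 0.0109 (Nrp1/endothelial markers) at 2 weeks, from -0.105 to 0.114 (Vegfa/Kdr) at 6 weeks, and from -0.0122 to 0.186 (Vegfa/Vegfb) and -0.00326 to 0.0368 (Vegfb/cardiomyocyte markers) between them. On log2(TPM + 1) and on log2(TPM + 0.1), 8 of the 10 genes were called at 6 weeks, against 7472 and 7463 of all 15054 genes. Of the calls over all genes, 98.4% were higher on each of these scales. Vegfa, Kdr and Nrp1 were among the 8, as higher, and Vegfb and Epas1 were not called. Calls over all genes with library size only were 1788 at 2 weeks and 5816 at 6 weeks (758 and 3759 with TMM), and 1202 between them (801 with TMM). With log2(TPM + 1) they were 2813 and 7472, with log2(TPM + 0.1) 3026 and 7463, with TMM-scaled TPM 477 at 2 weeks and 507 for 6 against 2 weeks, and with DESeq2 1229 at 2 weeks. Higher calls were 54% of all calls at 6 weeks with TMM and 94.4% with library size only. The pathway lists had 18, 68 and 23 calls with library size only (11, 43 and 11 with TMM), and 17 at 2 weeks and 17 between the irradiated groups with DESeq2. Leaving out 1 mouse at a time, the calls ran from 453 to 882 over all genes at 2 weeks, from 3089 to 3929 at 6 weeks and from 327 to 993 between them, and among the 10 genes were 3 at 2 weeks, from 4 to 6 at 6 weeks and from 1 to 3 between them. The lowest, 1, came without the sixth mouse at 6 weeks. Ratios past the threshold ran from 8 to 12 of 33. The cause of these shifts was not tested.

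Same-numbered mice were little alike across groups: correlations of 18 same-numbered pairs ran from -0.0828 to 0.106, 2 were over 0.1 and 5 mice matched their own number best. These values cannot exclude a pairing, for example by litter. Y-linked genes summed to over 10 CPM in replicates 4 to 6 of every group and in none of replicates 1 to 3, so the replicate number also follows Y-linked expression. With the replicate number as a block, 3, 5 and 2 of the 10 genes were called at 2 weeks, at 6 weeks and between them, and 583, 3549 and 545 of all genes. Depth limits Pgf most, the scarcest of the 10.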
